A study of Mus musculus with 7 samples.

Results

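Endothelial adhesion genes, vascular endothelial growth factors (VEGF), angiopoietins and their receptors were examined in soleus muscle, a slow muscle of the lower hindlimb, from mice without tenascin-C, a glycoprotein of the extracellular matrix. The 10 members were chosen by symbol and comprise 4 ligands (Vegfa, Vegfb, Angpt1, Angpt2), 4 receptors (Flt1, Kdr, Flt4, Tek) and 2 adhesion genes (Pecam1, Cdh5). Each has 1 probe, so they are 10 of the 203 named genes and 10 of the 223 probes on the array. All 7 mice belong to 1 group of tenascin-C-deficient animals of the 129/SV strain, kept as cage controls, and the series design calls them biological replicas. The labels give no age or sex and do not say how the deletion was made, and no wild-type or treated muscle was analysed here. No effect of the missing gene can therefore be estimated, and the comparisons are between each probe and its array's floor and between mice.

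Endothelial cells line the capillaries that supply each muscle fibre. VEGF proteins act on receptor tyrosine kinases of these cells and drive vessel growth, while angiopoietins act on the Tek receptor (also called Tie2) and regulate how stable vessels are. Pecam1 and VE-cadherin, the product of Cdh5, hold neighbouring endothelial cells together.

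Signals are given as percent of the array's summed signal. The floor is the 10th percentile of all probes on the same array, and a signal over 3 times the floor is called clearly above it. Values were recorded in steps of 0.01%, and a rounding error of 0.005% is 3.33% to 12.5% of the floor, depending on the array. Probes differ in how much label they bind, so levels of different genes cannot be set against each other, and each gene was set against the floor and across arrays only. In whole muscle, fewer cells of a type and less RNA per cell cannot be told apart.

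The arrays were not alike. Replicate 3 had a floor of 0.15%, against 0.04% to 0.08% on the other 6 arrays, and 13.0% of all probes were clearly above its floor against 18.8% to 31.4%. Its muscle fibre markers summed to 1.79% of the signal (5 of 7 listed genes on the array: Myh7, Myh2, Mb, Des and Ttn), against 20.8% to 27.5% on the others, and none of them was clearly above its floor. Myh7, the slow myosin heavy chain, and Mb, myoglobin, read 0.35% and 0.32% there, so the labelled tissue was not borne out by these markers on that array. Results are given with and without it, and the part of this difference in them was not tested. The 28S rRNA signal (Rn28s1) was 0.37% in replicate 3, 24.1% to 49.7% in replicates 4 to 7, and lay between at 3.48% for replicate 1 and 3.79% for replicate 2. Replicates 1 and 2 agreed within 1 rounding step for 8 of the 10 members, against 0 to 5 in the 14 other pairs of these 6 arrays. Over all 223 probes they agreed for 153, against 7 to 119, so the likeness was not particular to the members. Replicates 1 and 2 were counted as separate samples. The Tnc probe read 0.08% to 0.18%, which is 1.13 to 3 times the floor and clearly above it on no array.

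The promoters of 3 members are shown, because of the 2 VEGF ligands only Vegfb was clearly above the floor on any array and Flt4 was the receptor with the brightest reading in replicate 3. Of the 10 members, 6 had an entry in the RefSeq promoter table (GRCm38.p6). Each line gives the 250 bases before the annotated start, 5′ to 3′ on the gene's strand. Capitals mark the GC box GGGCGG or its reverse complement CCGCCC.
Vegfa (chr17:46032378-46032627, minus strand): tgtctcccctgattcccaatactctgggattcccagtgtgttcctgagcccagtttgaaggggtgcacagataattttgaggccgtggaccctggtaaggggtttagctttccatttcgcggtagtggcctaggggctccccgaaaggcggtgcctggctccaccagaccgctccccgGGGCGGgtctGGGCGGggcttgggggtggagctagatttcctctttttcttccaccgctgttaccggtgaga
Vegfb (chr19:6987652-6987901, minus strand): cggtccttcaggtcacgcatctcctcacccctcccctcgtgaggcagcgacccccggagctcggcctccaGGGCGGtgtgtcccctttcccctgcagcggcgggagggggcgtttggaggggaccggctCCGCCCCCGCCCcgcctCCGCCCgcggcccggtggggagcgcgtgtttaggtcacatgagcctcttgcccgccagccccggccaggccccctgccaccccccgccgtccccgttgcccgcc
Flt4 (chr11:49609429-49609678, plus strand): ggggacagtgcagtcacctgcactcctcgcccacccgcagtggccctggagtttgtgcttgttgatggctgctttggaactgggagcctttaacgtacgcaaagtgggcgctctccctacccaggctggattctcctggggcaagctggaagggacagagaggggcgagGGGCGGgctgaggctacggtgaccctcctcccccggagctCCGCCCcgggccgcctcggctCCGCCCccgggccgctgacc
The GC box occurred 2 times for Vegfa, 4 times for Vegfb, where a pair of matches adjoin, and 3 times for Flt4. Of all 32851 windows of this length, 32.7% held it. For Vegfa the table also holds a second window, at a start inside the gene (chr17:46025164-46025413), which is not shown and holds 1 GC box. Of the hypoxia response core only the form ACGTG was searched, on both strands, and other forms were not. ACGTG was in none of the 3 windows shown, 1 time in the second Vegfa window and in 16.6% of all windows. The ETS core GGAA, also searched on both strands, occurred 6, 1 and 2 times and was in 93.4% of all windows. Base composition differed, with 59.2% G or C for Vegfa, 76.4% for Vegfb and 68.4% for Flt4. These are descriptions of the letters in the windows and were not tied to the array signals.

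Of the 10 members, 6 were clearly above the floor on at least 1 of the 7 arrays, against 43.0% of all probes. Without replicate 3 there were 5, against 37.2%. Pecam1, Cdh5 and Vegfb were clearly above the floor on 4 of the 7 arrays each, and Angpt2 on 3. For Pecam1 and Cdh5 replicate 3 was among the 4, and without it only Vegfb was clearly above the floor on at least 4 arrays. Leaving out any 1 of a gene's 4 arrays has this effect by arithmetic, also for Vegfb. Flt1 and Flt4 were so on 1 array each, and Kdr, Tek, Angpt1 and Vegfa on none. Over all 223 probes, 23.3% were clearly above the floor on at least 4 arrays and 57.0% on none, so the share of the members was near that of the array. Leaving out replicate 3, no member was clearly above the floor on every remaining array, where 17.0% of all probes were. By array, 1 member was clearly above the floor in replicate 1 (22.0% of all probes), 1 in replicate 2 (24.2%), 3 in replicate 3 (13.0%), 3 in replicate 4 (25.6%), 0 in replicate 5 (18.8%), 5 in replicate 6 (31.4%) and 4 in replicate 7 (30.9%). Cdh5 in replicates 2 and 5, Kdr in replicate 2 and Vegfb in replicate 4 read 3 times the floor to within rounding and were not called. Counting them leaves the same 3 genes on at least 4 arrays, against 24.7% of all probes.

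**Figure D1:**
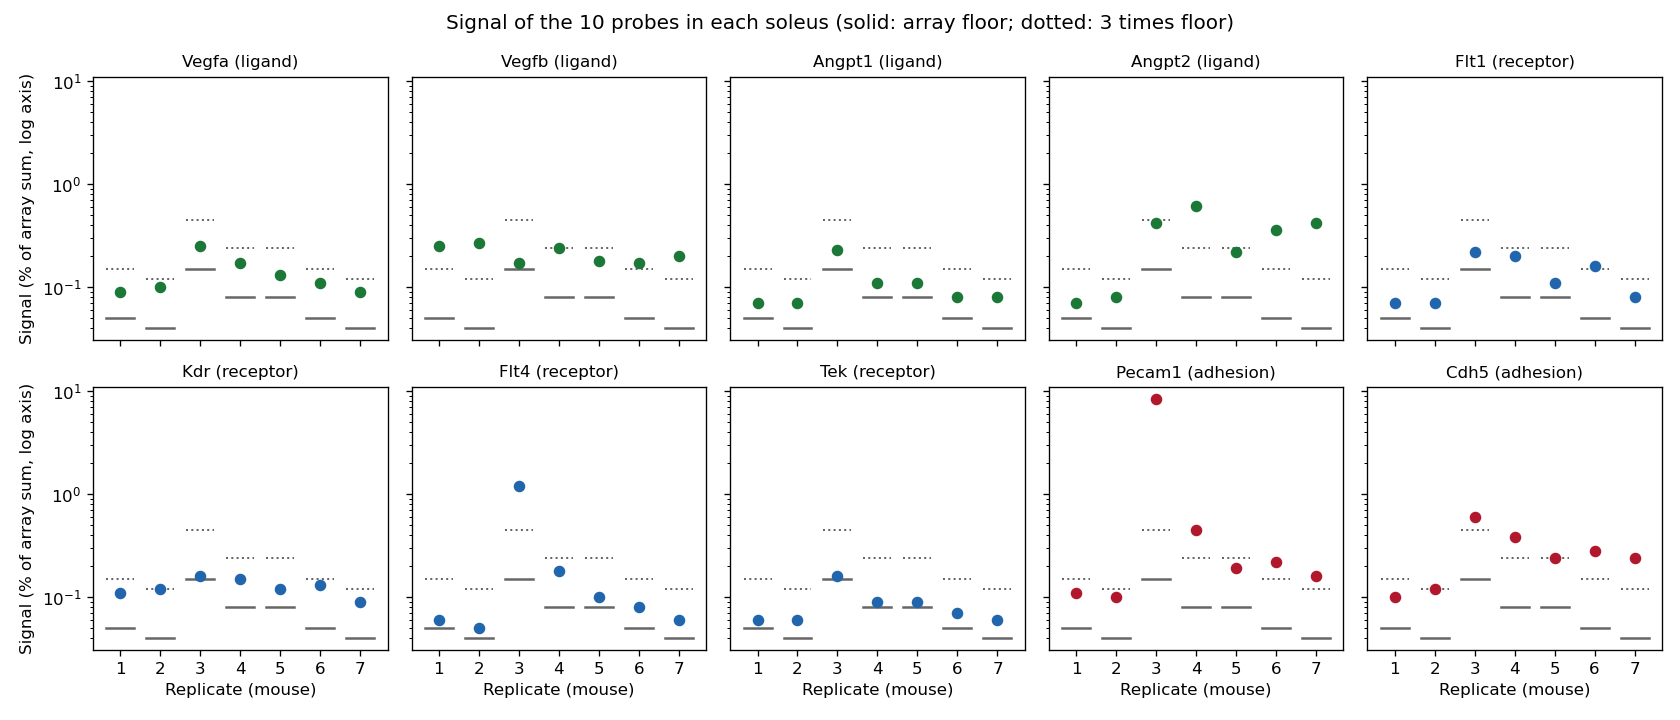
Signal of each member (percent of array sum, log axis) in the 7 mice, with ligands in green, receptors in blue and adhesion genes in red; the solid bar is the array's floor and the dotted bar 3 times it. Tek and Angpt1 follow the floor from array to array, while Pecam1 reaches 8.36% in replicate 3 and Angpt2 is lowest in replicates 1 and 2.

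**Figure D2:**
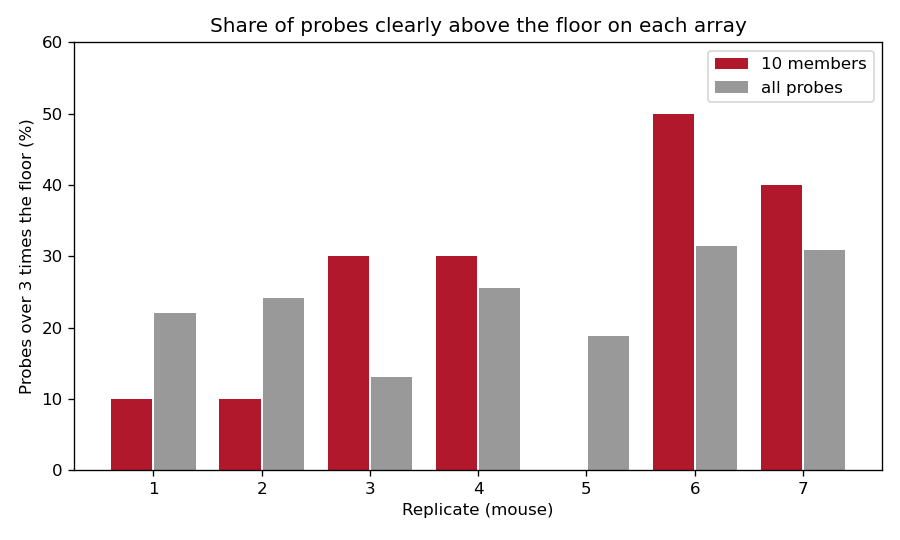
Percent of the 10 members (red) and of all 223 probes (grey) that were over 3 times the floor, by array. The members range from 0 of 10 in replicate 5 to 5 of 10 in replicate 6, and all probes from 13.0% in replicate 3 to 31.4% in replicate 6.

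The level of each member was then tested against 2 times the floor with limma over all 223 probes. Over the 7 arrays, 2 members passed, Cdh5 and Pecam1, and 19.7% of all probes did. Without replicate 3 these were joined by Vegfb and Angpt2, which makes 4 members, against 26.0% of all probes. No member passed when any single array among replicates 4 to 7 was left out. Of the 223 probes, 34 to 37 passed in these runs, against 44 over the 7 arrays. Without replicate 2 only Pecam1 passed (39 of all probes), and without replicate 1 Pecam1, Cdh5 and Angpt2 did (43 of all probes). Against 1 times the floor all 10 members passed, and so did 78.0% of all probes. Most probes lie above the floor by its definition.

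Among the VEGF ligands, Vegfa is the main growth signal for vessels. It read 0.09%, 0.10%, 0.25%, 0.17%, 0.13%, 0.11% and 0.09% in replicates 1 to 7. Its signal was 1.62 to 2.5 times the floor, so that all 7 arrays lay in a narrow band and the high reading of replicate 3 goes with its high floor. The geometric mean was 2 times the floor with an SD of 0.24 on the log2 scale (n = 7), and the level test did not pass (limma adjusted p = 1).

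Vegfb acts through Flt1 and is abundant in tissues that burn fatty acids, such as heart and skeletal muscle. From replicate 1 to replicate 7 it read 0.25%, 0.27%, 0.17%, 0.24%, 0.18%, 0.17% and 0.20%. In times the floor these were 5 and 6.75, then 1.13, then 3, 2.25, 3.4 and 5. Replicates 1 and 2 were the highest on the deposited scale and replicate 3 was at its floor. The log2 level over the floor was 1.73 ± 0.86 (SD, n = 7; limma adjusted p = 0.097) and 1.99 ± 0.58 without replicate 3 (SD, n = 6; limma adjusted p = 0.00037).

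Angpt1 activates Tek and stabilises vessels. It read 0.07% to 0.11% on the 6 arrays other than replicate 3 and 0.23% there, or 1.38 to 2 times the floor on all 7. It stayed in a band as narrow as that of Vegfa, and its log2 level was 0.64 ± 0.20 (SD, n = 7; limma adjusted p = 1).

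Angpt2 can oppose Angpt1 at Tek and is made mainly by endothelial cells. From replicate 1 to replicate 7 it read 0.07%, 0.08%, 0.42%, 0.61%, 0.22%, 0.36% and 0.42%. In times the floor these were 1.4 and 2, then 2.8, then 7.62, 2.75, 7.2 and 10.5. Replicates 4, 6 and 7 were high, and replicates 1, 2, 3 and 5 were not clearly above the floor. The log2 level was 1.94 ± 1.11 (SD, n = 7; limma adjusted p = 0.065) and 2.02 ± 1.19 without replicate 3 (SD, n = 6; limma adjusted p = 0.040).

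Of the VEGF receptors, Flt1 binds Vegfa tightly and also binds Vegfb. It read 0.07%, 0.07%, 0.22%, 0.20%, 0.11%, 0.16% and 0.08% in replicates 1 to 7. It was clearly above the floor in replicate 6 alone, at 3.2 times, and between 1.38 and 2.5 times on the others.

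Kdr is the receptor that carries most of the growth signal of Vegfa. It read 0.11%, 0.12%, 0.16%, 0.15%, 0.12%, 0.13% and 0.09%. In times the floor this was 1.07 in replicate 3, its lowest level, and 1.5 to 3 elsewhere.

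Flt4 is the receptor of Vegfc and Vegfd and in the adult is mainly a gene of lymphatic endothelium. From replicate 1 to replicate 7 it read 0.06%, 0.05%, 1.21%, 0.18%, 0.10%, 0.08% and 0.06%. Replicate 3 stood alone at 8.07 times the floor, while the other arrays read 1.2 to 2.25 times. The other listed markers of lymphatic endothelium, Prox1, Lyve1 and Pdpn, had no named probe here. Its ligands Vegfc and Vegfd read 2.6 and 1.27 times the floor in replicate 3.

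Tek, the angiopoietin receptor, stayed close to the floor. It read 0.06% to 0.09% on the 6 arrays other than replicate 3 and 0.16% there, which was 1.07 to 1.5 times the floor on all 7. None of the 4 receptors passed the level test with or without replicate 3, the lowest limma adjusted p being 0.68 for Kdr without it.

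Pecam1, an adhesion molecule of endothelial junctions and of some blood cells, read 0.11%, 0.10%, 8.36%, 0.45%, 0.19%, 0.22% and 0.16% in replicates 1 to 7. In times the floor these were 2.2, 2.5, 55.7, 5.62, 2.38, 4.4 and 4. Replicate 3 read 18.6 times the next highest array, and replicates 1, 2 and 5 were not clearly above their floor. The log2 level was 2.31 ± 1.62 (SD, n = 7; limma adjusted p = 0.044) and 1.72 ± 0.56 without replicate 3 (SD, n = 6; limma adjusted p = 0.0069). Over all 7 arrays the call was lost without variance trend and robust fitting (limma adjusted p = 0.118) and after quantile normalization (limma adjusted p = 0.201).

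Cdh5, which encodes the cadherin of endothelial junctions, read 0.10%, 0.12%, 0.60%, 0.38%, 0.24%, 0.28% and 0.24%. In times the floor these were 2, 3, 4, 4.75, 3, 5.6 and 6. Its replicate 3 value fell within the range of the other arrays on that scale, unlike that of Pecam1. The log2 level was 1.93 ± 0.57 (SD, n = 7; limma adjusted p = 0.030) and 1.91 ± 0.62 without replicate 3 (SD, n = 6; limma adjusted p = 0.00093).

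By role, the median of the 4 ligands was 2.46 ± 0.71 times the floor over the arrays without replicate 3, that of the 4 receptors 1.69 ± 0.35 and that of the 2 adhesion genes 3.79 ± 1.42 (SD, n = 6). The median of all probes on these arrays was 1.69 ± 0.28. In replicate 3 the same medians were 1.6, 1.27 and 29.9, against 1.2 for all probes. Counting every reading of these 6 arrays, 7 of 24 ligand readings, 1 of 24 receptor readings and 6 of 12 adhesion readings were clearly above the floor, against 25.5% of the readings of all probes. These medians and counts describe the probes and were not tested.

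**Figure D3:**
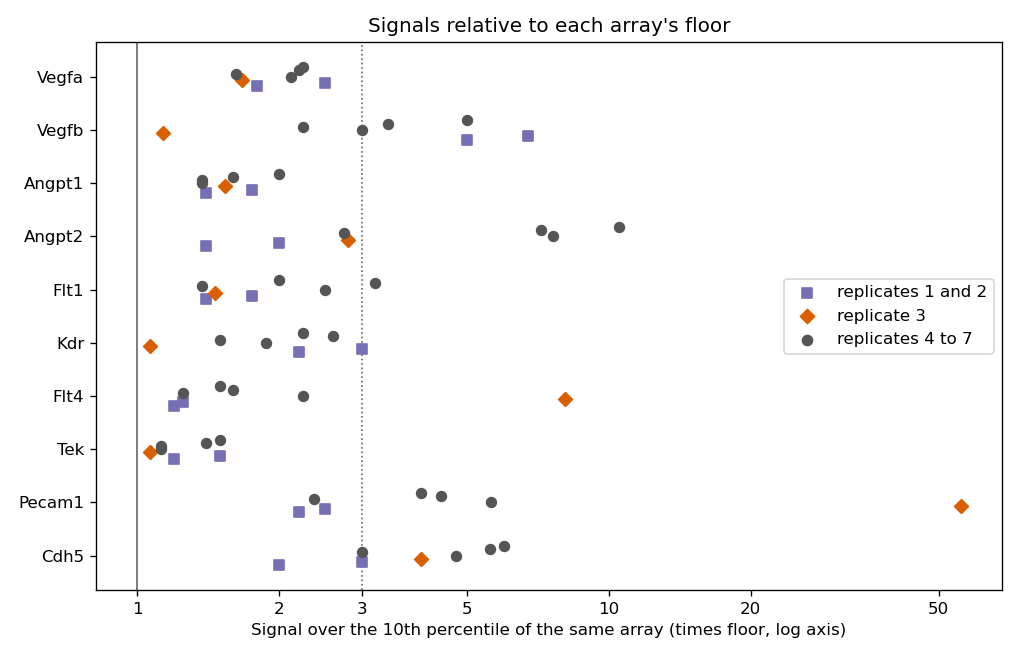
Signal of each member over its array's floor (log axis), with the solid line at 1 and the dotted line at 3 times the floor; each point is 1 mouse. In replicate 3 (orange) Pecam1 and Flt4 lie at 55.7 and 8.07 times the floor, while Kdr, Tek and Vegfb lie between 1.07 and 1.13.

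The 10 members did not all move in the same direction in replicate 3, and neither did the probes of the whole array. On the deposited scale, 8 members were above every other array there, but so were 70.4% of all probes, and its floor was higher. In times the floor only Pecam1 and Flt4 were above every other array (20.2% of all probes), and Kdr, Tek and Vegfb were below every other array (43.9%). None of these counts was far from the share over all probes, so the split was not particular to the members. The 10 members summed to 11.8% of the signal in replicate 3 and to 0.99% to 2.58% on the others, and Pecam1 alone made up 71.0% of that sum, against 9.62% to 17.4%. Of the 7 listed endothelial markers on the array, Pecam1 and Cdh5 were clearly above the floor in replicate 3, while Flt1, Kdr, Tek, Cd34 and Nos3 were not. Their sum was 9.91% there and 0.62% to 1.5% on the others, and none was at 0 on any array. Markers of other cells on the same array were near its floor. The pericyte and smooth muscle markers Pdgfrb and Angpt1 summed to 0.42% (0.16% to 0.26% on the others), the fibroblast markers Fn1 and Pdgfra to 0.49% over 3 probes (0.24% to 0.34%), the leukocyte marker Il1b read 0.17% (0.04% to 0.09%) and the adipocyte marker Fabp4 0.18% (0.34% to 0.66%). In these lists 2 of 5, 2 of 4, 1 of 5 and 1 of 3 genes were on the array, and none was clearly above the floor in replicate 3. The blood markers had no probe.

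Some members also followed the division of the other 6 arrays by 28S signal. On the deposited scale Pecam1, Cdh5, Flt1, Angpt1 and Angpt2 were higher in each of replicates 4 to 7 than in replicates 1 and 2 (30.0% of all probes). Vegfb alone was lower in each of replicates 4 to 7 (4.48% of all probes), although its nearest readings, 0.24% in replicate 4 and 0.25% in replicate 1, are 1 rounding step apart. The nearest readings of Flt1 and Angpt1, 0.08% against 0.07%, are also 1 step apart. The median probe was 1.39 times as bright in replicates 4 to 7 as in replicates 1 and 2, a shift of 0.47 on the log2 scale, against 1.03 times relative to the floor. After division by the floor only Angpt2 still separated the arrays (13.0% of all probes) and no member did so in the opposite direction (7.62%).

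Angpt2 averaged 0.402% ± 0.162 in replicates 4 to 7 (SD, n = 4) and 0.075% in replicates 1 and 2, where it was not clearly above the floor. Cdh5 averaged 0.285% ± 0.066 and 0.11%, and Pecam1 0.255% ± 0.132 and 0.105%. Neither was clearly above the floor in replicates 1 and 2, so no fold is given for these 3 genes. Vegfb averaged 0.198% ± 0.031 in replicates 4 to 7 and 0.26% in replicates 1 and 2, and it was clearly above the floor in replicates 1, 2, 6 and 7 but not in replicates 4 and 5. With 2 arrays against 4 divided by a measured signal, these differences were not tested, and the part of the 28S signal in them was not tested.

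Cdh5 and Pecam1 were both clearly above the floor in replicates 3, 4, 6 and 7. The signal of Cdh5 over that of Pecam1 on the same array was 0.844, 1.27 and 1.5 in replicates 4, 6 and 7 and 0.0718 in replicate 3. The absolute size of this ratio depends on the probes, and only its change between arrays can be read.

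The spread of each member between mice was set against the variance trend of the whole array. In a one-sided F test of each variance against limma's trend, 0 of the 10 members and 0.0% of all probes passed over the 7 arrays. On simulated data this test found few of the probes made more variable, so the absence of calls says little about the members' spread. At an unadjusted p under 0.05 there were 3 members, Pecam1, Flt4 and Angpt2, and 7.62% of all probes. Their SDs on the log2 scale were 2.21 (F test adjusted p = 0.244), 1.61 (F test adjusted p = 0.396) and 1.23 (F test adjusted p = 0.518). Kdr and Vegfb had the smallest SDs among the members, both 0.28. Without replicate 3, again 0 members passed, while 2.24% of all probes did, and Pecam1 and Angpt2 were the members with an unadjusted p under 0.05 (9.87% of all probes). Angpt2 then had an SD of 1.30 against 0.40 for probes at its level (F test adjusted p = 0.067), and Pecam1 0.79 (F test adjusted p = 0.460). Relative to the floor, over 7 arrays, the SDs of Kdr and Vegfb were 0.51 and 0.86 and exceeded that of Vegfa, 0.24, so their small spread holds on the deposited scale only.

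Relations between ligands and receptors were computed for 6 pairs over the 6 arrays other than replicate 3, on log2 signals over the floor, with exact two-sided permutation tests over 720 pairings and Benjamini-Hochberg adjustment over the 6 pairs. Angpt1 and Tek had r = 0.93 (exact permutation p = 0.0056, adjusted p = 0.033) and rho = 0.99 (exact permutation p = 0.011, adjusted p = 0.067). Without replicates 2 and 7, r was 0.98, and as deviations from the means of the 2 parts divided by 28S signal it was 0.95. Neither gene was clearly above the floor on any array, and both were divided by the same floor. On the deposited scale the adjusted p was 0.078, relative to the array median 0.133 and over all 7 arrays 0.062. On the deposited scale r fell to 0.58 without replicates 4 and 5. With replicate 3 kept, on log2 signals over the floor, r was 0.53 without replicates 2 and 7.

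The other 5 pairs did not pass. Vegfa and Kdr had r = 0.83 (exact permutation p = 0.042, adjusted p = 0.122) and rho = 0.89 (exact permutation p = 0.033, adjusted p = 0.10). Pecam1 and Cdh5 had r = 0.86 (exact permutation p = 0.061, adjusted p = 0.122) and rho = 0.75 (exact permutation p = 0.11, adjusted p = 0.222), and r was 0.98 without replicates 1 and 4. Within the parts divided by 28S signal, these 2 values of r were 0.89 and 0.72. Vegfa and Flt1 had r = 0.57 (exact permutation p = 0.236, adjusted p = 0.354) and rho = 0.49 (exact permutation p = 0.356, adjusted p = 0.533). Their r was -0.74 without replicates 1 and 5 together, 0.46 without replicate 1 alone and 0.33 without replicate 5 alone. The sign thus depended on which arrays were kept. Vegfb and Flt1 had r = -0.11 (exact permutation p = 0.831, adjusted p = 0.831) and rho = 0.029 (exact permutation p = 0.983, adjusted p = 0.983), and r was -0.79 without replicates 2 and 5. Angpt2 and Tek had r = 0.22 (exact permutation p = 0.70, adjusted p = 0.831) and rho = 0.088 (exact permutation p = 0.867, adjusted p = 0.983), and r was -0.30 without replicates 1 and 7. Within the parts divided by 28S signal, r of these 3 pairs was 0.75, 0.44 and 0.69.

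For the 3 members clearly above the floor on 4 arrays, the most similar other probes were named by Pearson's r of log2 signals over the floor, leaving out replicate 3, as a description. They were the 2 probes for Igf1, an insulin-like growth factor, for Pecam1 (r = 0.97 for both), Lama4, a laminin chain (r = 0.99), and Btk, a kinase of blood cells (r = 0.97), for Cdh5, and Ywhaz, a 14-3-3 protein (r = 0.97), and Myh2, a fast myosin heavy chain (r = 0.96), for Vegfb. In replicate 3, which did not enter these values of r, the Igf1 probes read 4.93% and 2.66% and were high together with Pecam1. That array was above every other for 70.4% of all probes on this scale. It was also among the 4 arrays by which Pecam1 and Cdh5 were selected here, so it is no independent check. Btk was clearly above the floor on no array and Lama4 on 1. With 6 arrays and many probes, high values of r are easily found.

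Of a list of 44 symbols of other vessel growth and hypoxia genes, 24 were on the array. None was clearly above the floor on at least 4 arrays, against 23.3% of all probes. On no array were 19 so, against 57.0% of all probes. Among the 19 were Hif1a, the oxygen-sensitive transcription factor subunit, at 1.12 to 1.5 times the floor, and Nos3, endothelial nitric oxide synthase, at 1 to 1.4 times. None of the 24 passed the level test over 7 arrays, where 19.7% of all probes did. Without replicate 3 only Vegfd, a ligand of Flt4, passed, at 3.72 times the floor (limma adjusted p = 0.0017), against 26.0% of all probes. Vegfd read 2, 2.5, 1.27, 4.87, 3, 9 and 4 times the floor in replicates 1 to 7, lowest in replicate 3, where Flt4 was highest. Relative to the floor, 43.9% of all probes were lowest in replicate 3. On the deposited scale Vegfd was not, with 0.19% there against 0.10% in replicates 1 and 2.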

How the data were processed

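RNA from the soleus of 7 mice was measured on a 1-channel array. Per the labels' protocols, 4 µg of total RNA from cryosections was reverse transcribed with gene-specific primers and a radioactive nucleotide; the sources used here do not state the scanner or software. The authors deposited intensities on a linear scale, divided by the array's summed signal: without 2 bright probes, 1 of them for 28S rRNA, each array sums to 99.8% to 100% of it. The file has no detection flag and no value at or below 0, and the number of arrays, the rounding step and the brightness over the floor limit the precision. Probes were named through the platform annotation (205 of 223 with 1 symbol), and 204 matched the RefSeq table. The files name no genome build; printed coordinates are those of the RefSeq promoter table.

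Members, lists and tests were chosen with earlier results of these data known. The level test used limma 3.58.1 in R 4.3.3 (intercept only, trend and robust, treat at 2 times the floor), and the spread test compared each variance with limma's trend in a one-sided F test (6 residual degrees of freedom). Benjamini-Hochberg adjustment covered 223 probes at a threshold of 0.05, and both tests were checked on simulated data, where the spread test found few of the probes made more variable. Correlations used exact permutation in Python 3.11.15. The text names all members, Tnc, Rn28s1, Myh7 and Mb, the 2 most similar probes of each member clearly above the floor on 4 of the 7 arrays, and listed vessel genes that pass a test; Hif1a, Nos3, Vegfc and single markers were named after their values were seen. Alternatives were floors at the 5th and 20th percentile, lines at 2 and 5 times the floor, quantile normalization, a dim-probe filter (166 probes kept), a pseudocount of 0.05%, a fit without trend and robustness, division by floor or median, and leaving out each replicate.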

Additional observations from a re-analysis of the deposited data

Results flagged for a closer look

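For each member, on the deposited and on the floor-relative log2 scale, the gap between the most extreme array and its nearest neighbour was divided by the whole range of the 7 arrays (Dixon's test at the 95% level). Of 20 values examined, 6 exceeded the critical value, each time because replicate 3 was highest; chance gives about 1 in 20. The members exceeding the critical value on both scales were Pecam1 (0.66 for the deposited signal and 0.71 relative to the floor) and Flt4 (0.598 and 0.67). Tek (0.587) and Angpt1 (0.62) exceeded it on the deposited scale alone. Relative to the floor, Tek was lowest in replicate 3 and Angpt1 lay within the range of the other arrays, and the floor of that array is 0.15% against 0.04% to 0.08%. No explanation was tested.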

How the results depend on the processing

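The 3 members clearly above the floor on at least 4 arrays became 6 at 2 times the floor and 0 at 5 times, and 0 to 3 when single replicates were left out. Each of the 3 was so on exactly 4 arrays, so leaving out any of those arrays loses it by arithmetic. The 4 members above it on no array became 2 at 2 times the floor and numbered 4 to 5 with single replicates left out. The shares over all probes are not given for the lines at 2 and 5 times the floor. Counting signals at the line as above it, an alternative chosen after seeing the data, gave 3 on at least 4 arrays. In the level test 2 members and 44 of 223 probes passed. With the 20th percentile as floor these became 0 and 39, with the pseudocount 0 and 32, and without trend and robustness 1 and 41. They were 10 and 174 against 1 times the floor, and 0 to 4 and 34 to 58 with single replicates left out. With the 5th percentile as floor, 3 members and 48 probes passed, Angpt2 among them (limma adjusted p = 0.029). With the dim-probe filter, 3 members and 47 of 166 probes passed, again with Angpt2 (limma adjusted p = 0.046). After quantile normalization 2 members and 45 probes passed, Angpt2 (limma adjusted p = 0.037) in place of Pecam1. The cause of these changes was not tested. The 1 relation that passed became 0 on deposited values, 0 over array medians and 0 over all 7 arrays. Uncalled relations changed sign for Vegfa and Flt1 over array medians (r = -0.24), Vegfb and Flt1 over all 7 arrays (r = 0.20) and Angpt2 and Tek over array medians (r = -0.90); with single replicates left out, r ran from -0.74 to 0.035 for Vegfb and Flt1 and from -0.093 to 0.57 for Angpt2 and Tek. The spread test called 0 members under each alternative, where it called 0 to 5 of all probes. These alternatives included division by floor or median without replicate 3 (chosen after seeing the data). The class medians moved by less than the spread between mice under each alternative run. No paired analysis was possible because there is 1 group.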
